A study of Mus musculus with 9 samples.

Results

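Mitosis and spindle genes were followed across cultured mouse mammary cells. The group holds 50 genes chosen for their function: the cyclins and kinases that start mitosis, the spindle assembly checkpoint, the kinetochore, the motors of the spindle, the proteins of cytokinesis, the enzymes that shape mitotic chromosomes, and the transcription factor Foxm1. A gene was measured if a probe set of the MOE430A array, a group of short probes that together read one transcript, was annotated with its symbol and no other, and where there were several, the probe set of the highest mean over all arrays was used. By this rule 47 of the 50 genes were measured, of 12393 genes measured in all. Ccnb1, Cdca8 and Espl1 had no such probe set and are not analysed here.

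The study compared 3 kinds of culture with 3 arrays each. Tumorspheres (TMS) grew in suspension as spheres from mammary tumors of MMTV-Neu (N202) mice, in which the mouse mammary tumor virus promoter drives the Neu (Her2) receptor in mammary epithelium, and each of the 3 cultures came from its own tumor. Mammospheres (MMS) came from the mammary glands, in the same stem cell medium, of virgin female FVB/N mice of 6 to 8 weeks, which carry no transgene. For mammospheres induced to differentiate (diffMMS), mammosphere cells were dispersed, plated on collagen and kept in serum for 7 days. Spheres were passaged every 7 days and harvested between passages 3 and 5. The diffMMS cultures therefore differ from MMS in serum, in attachment and in the 7 days of culture after the sphere stage together. The TMS cultures differ from MMS in the transgene and in tumor origin together. The age of the tumor-bearing mice is not given in the sources used here. Arrays are named below by their codes: 858A, 859A and 860A for MMS, 1099A, 1100A and 1101A for TMS, and 861A, 862A and 863A for diffMMS, and values by array are listed in that order. The codes of the TMS arrays form a run apart from the other 6, so that array run and group cannot be told apart in any comparison of TMS.

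A cell that divides makes most of these transcripts only for a short part of its cycle. Their promoters are kept silent in resting cells and early in the cycle by a repressor complex, DREAM, which holds the CHR element, and they are switched on late in the cycle by B-MYB and FOXM1, with NF-Y bound to CCAAT boxes. In a culture of unsorted cells the level of the group is therefore widely read as a sign of how many cells are cycling, and Mki67, which codes for the Ki-67 antigen, is used in the same way in breast tumor pathology. In RNA of a whole culture, fewer cycling cells and less of each transcript per cycling cell cannot be told apart.

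The promoters are shown here because the members moved together. RefSeq promoter sequences (GRCm38.p6) were found for 39 of the 47 measured genes. There was none for Ccna2, Cdc25c, Aurkb, Incenp, Tpx2, Kif20a, Smc4 and Foxm1. Each stretch is the 120 bases before the annotated start, written on the strand of the gene, and capitals mark a CHR element (TTTGAA or TTTAAA, or the first of these on the other strand, TTCAAA) or a CCAAT box (CCAAT, or ATTGG on the other strand). The first set holds genes that were lower in diffMMS and that carry CCAAT boxes, all but Ccnb2 with a CHR element as well in the bases shown.
Top2a: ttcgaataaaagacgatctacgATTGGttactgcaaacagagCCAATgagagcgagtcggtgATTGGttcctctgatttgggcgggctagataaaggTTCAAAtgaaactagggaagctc
Ube2c: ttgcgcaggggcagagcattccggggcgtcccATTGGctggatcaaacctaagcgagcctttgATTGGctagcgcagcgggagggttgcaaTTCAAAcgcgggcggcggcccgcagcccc
Cdk1: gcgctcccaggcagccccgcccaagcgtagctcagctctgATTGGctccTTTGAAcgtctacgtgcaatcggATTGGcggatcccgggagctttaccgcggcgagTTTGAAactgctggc
Plk1: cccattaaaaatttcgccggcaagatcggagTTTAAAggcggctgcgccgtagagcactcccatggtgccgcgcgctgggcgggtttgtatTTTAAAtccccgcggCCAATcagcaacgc
Cenpa: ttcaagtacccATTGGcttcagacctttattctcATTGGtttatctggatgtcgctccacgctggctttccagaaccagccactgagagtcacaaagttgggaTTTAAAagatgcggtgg
Ccnb2: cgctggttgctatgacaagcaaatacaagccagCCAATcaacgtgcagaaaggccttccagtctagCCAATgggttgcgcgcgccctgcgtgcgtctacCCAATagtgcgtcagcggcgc
They lie at chr11:99024190-99024309 (minus strand) for Top2a, chr2:164769809-164769928 (plus strand) for Ube2c, chr10:69352913-69353032 (minus strand) for Cdk1, chr7:122159315-122159434 (plus strand) for Plk1, chr5:30666766-30666885 (plus strand) for Cenpa and chr9:70421555-70421674 (minus strand) for Ccnb2. In Top2a the CCAAT boxes stood 98, 78 and 58 bases before the start and the CHR element 23 bases before it. In Ccnb2 the 3 CCAAT boxes stood 87, 54 and 21 bases before the start.

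The second set shows the member with the largest fall in diffMMS, Birc5, and Pttg1, whose probe set used was not called in any comparison. Another probe set of Pttg1 was lower in diffMMS and in TMS than in MMS. Neither stretch holds a CHR element or a CCAAT box. In the 250 bases before the start, Birc5 held 1 CHR element and 0 CCAAT boxes, and Pttg1 held neither.
Birc5: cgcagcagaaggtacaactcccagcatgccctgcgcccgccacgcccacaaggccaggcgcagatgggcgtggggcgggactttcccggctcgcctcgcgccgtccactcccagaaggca
Pttg1: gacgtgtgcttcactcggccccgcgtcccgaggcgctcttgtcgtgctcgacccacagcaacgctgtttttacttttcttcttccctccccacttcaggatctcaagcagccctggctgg
They lie at chr11:117849117-117849236 (plus strand) for Birc5 and chr11:43425982-43426101 (minus strand) for Pttg1.

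In the 250 bases before the start, with both strands searched, a CCAAT box was found in 69.2% of the 39 member promoters and in 34.5% of all 27025 promoters of the table. The share with 2 or more CCAAT boxes was 43.6% of the members and 10.5% of all promoters. A CHR element stood in 43.6% of the members against 25.5% of all promoters, and CHR element and CCAAT box together in 35.9% against 9.0%. With the 50 bases after the start included, a window that was added after the data were seen, a CHR element was found in 74.4% of the members and in 27.8% of all promoters. An E2F motif (the letters TTCGCGC, the variant TTGGCGC, which can share bases with a CCAAT box read on the other strand, or the variant TTCCCGC) was found in 10.3% of the members, against 6.79% of all promoters and 10.8% of the 9888 promoters of genes on the array. Among the 34 members with a promoter sequence that were lower in diffMMS, 73.5% held a CCAAT box, and among the 5 that were not called 40.0% did. That split rests on the probe sets used. Among the 5, Kif2c, Tacc3 and Pttg1 had another probe set that was lower in diffMMS, and no link between motif and change was tested. All these shares are counts of letters, and whether any factor bound there was not measured.

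The deposited values are intensities of probe sets on a linear scale, and values below are log2 intensities, taken after a constant of 8.67 (10% of the overall median) was added and the arrays were brought to a common distribution. Levels are compared between arrays for one gene and never between genes. Array medians lay between 83.8 and 88.3. The ratio of the 3' to the 5' control probe set, a sign of RNA integrity, was 0.824 to 0.912 for Gapdh and 1.18 to 1.48 for actin, and TMS lay below MMS without overlap for Gapdh (0.840 to 0.852 against 0.867 to 0.900). Luminal epithelial markers were high in TMS: Krt18 averaged 5.93 in MMS, 10.20 in TMS and 5.49 in diffMMS, and Epcam averaged 6.31 in MMS, 9.86 in TMS and 6.07 in diffMMS. The basal keratin Krt14 averaged 5.58 in both MMS and diffMMS and 6.81 in TMS, with an SD of 1.12 there (n = 3). Krt5, another basal keratin, averaged 6.73 in MMS, 6.64 in TMS and 6.92 in diffMMS, and was called lower in TMS than in diffMMS (adjusted p = 0.0209 in limma).

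All 3 kinds of culture had their own level of the mitosis genes, highest in MMS, between in TMS and lowest in diffMMS. In each array the deviation of every member from its own mean of 9 arrays was averaged over the 47 members. This index was 0.37 to 0.42 in the MMS arrays, 0.01 to 0.08 in the TMS arrays and -0.44 to -0.39 in the diffMMS arrays on the log2 scale, so that the groups did not overlap and arrays of one group lay within 0.1 of each other. The means of 43 of the 47 genes followed the order MMS, TMS, diffMMS. For 31 of the 47 genes (66%) this order held with no array of one group overlapping another group, as it did for 3.84% of all 12393 genes. For 27 of the 47 (57.4%) all 3 comparisons passed the test in that order, against 1.7% of all genes. The exceptions by mean were Nek2 and Nuf2, which were lowest in TMS, and Tacc3 and Pttg1, which were highest in TMS by the probe sets used but not by their further ones.

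**Figure D1:**
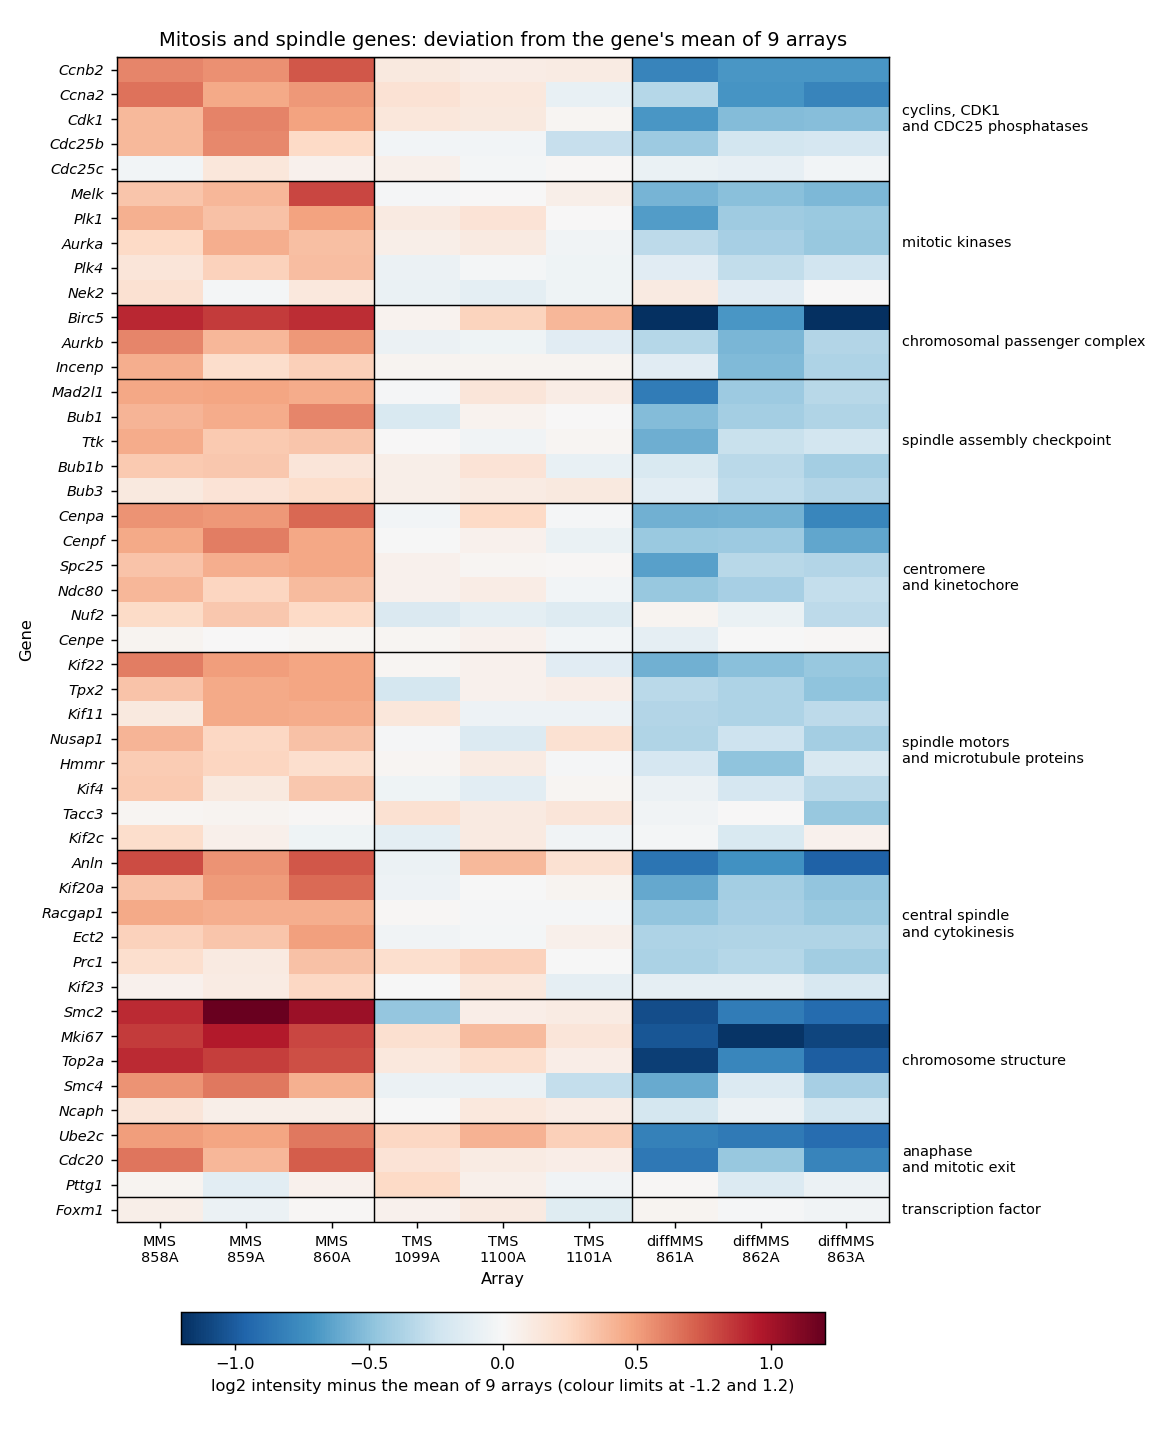
Deviation of each mitosis and spindle gene (row, grouped by role) from its own mean over the 9 arrays (columns), in log2 intensity, with colour limits at -1.2 and 1.2. The MMS columns are red for nearly every gene, the diffMMS columns blue, and the TMS columns pale, with an index of 0.01 to 0.08.

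The first comparison asks what happened to the genes when mammospheres were induced to differentiate. Of the 47 genes 40 were lower in diffMMS than in MMS (85.1%), 0 were higher and 7 were not called (limma, adjusted p under 0.05 after Benjamini-Hochberg correction over all probe sets). Over all probe sets 16.9% were lower and 16.2% were higher, and over all genes 16.1% and 18%. The arrays had been brought to a common distribution, which favours such an even split. A shift of the whole transcriptome could therefore not be seen here. The median log2 fold change of the members was -0.74, against 0.05 for all genes, and 15 members fell by more than 1 log2 unit, as did 2.11% of all probe sets, while 1.53% rose as far. The diffMMS arrays lay below the MMS arrays without overlap for 41 members, as they did for 24.3% of all probe sets, with 27.3% above. At an unadjusted p under 0.05 limma also found 0 members higher. The largest falls were those of Birc5, Smc2, Mki67, Top2a and Anln.

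Markers of cell types moved in the same comparison, in which 18% of all genes were higher and 16.1% lower. Of 8 basal and myoepithelial markers 4 were higher in diffMMS and 4 were not called, with a median log2 fold change of 0.22. Their summed intensity was 2667 to 3523 against 771 to 860 in MMS. Only 1 of them, Acta2, smooth muscle actin, was called with a change beyond 1 log2 unit. Acta2 rose from 8.83, 8.60 and 8.83 to 11.08, 11.56 and 11.43. Of 8 fibroblast markers 4 were higher and 2 lower, with sums of 35881 to 36318 against 31500 to 33245. Of 8 macrophage markers 4 were higher and 1 lower, with sums of 761 to 1224 against 640 to 728. No marker of these lists was at 0, and their part in the fall of the mitosis genes was not tested.

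The second comparison sets tumor spheres against normal spheres. Of the 47 genes 32 were lower in TMS than in MMS (68.1%), 0 were higher and 15 were not called, where 7.77% of all probe sets were lower and 6.5% were higher (7.11% and 6.21% of all genes). The median log2 fold change of the members was -0.37, and that of all genes was 0.00. Smc2 was the one member called with a difference beyond 1 log2 unit, and 0.261% of all probe sets were that much lower and 0.773% that much higher. The TMS arrays lay below the MMS arrays without overlap for 36 members, as they did for 18.1% of all probe sets, and above them for Tacc3 (15.3% of all probe sets). At an unadjusted p under 0.05 limma found 37 members lower and 0 higher. The count was lowest without MMS array 860A, at 18, and the genes lost included Birc5, Anln, Plk1 and Mad2l1, with adjusted p values of 0.053, 0.0527, 0.0986 and 0.109 for these in limma. Their log2 fold changes without 860A were -0.63, -0.49, -0.30 and -0.39, against -0.64, -0.52, -0.33 and -0.38 with all arrays. Leaving out any array other than 860A gave 24 to 33, with 24 without 858A or 859A.

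Of 9 luminal markers 8 were higher in TMS, with a summed intensity of 4764 to 7389 against 672 to 765 in MMS. Over all genes 6.21% were higher and 7.11% lower in this comparison. Of 8 macrophage markers 5 were higher in TMS, with sums of 1264 to 2230 against 640 to 728. Fibroblast markers summed to 27346 to 33404 in TMS and 31500 to 33245 in MMS, with 1 of 8 higher and 2 lower. Of 6 endothelial markers 3 were lower in TMS, with sums of 338 to 414 against 411 to 464. The part of these cells, and of the lower Gapdh ratio in TMS, in the lower level of the mitosis genes was not tested.

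The third comparison sets TMS against diffMMS. Of the 47 genes 34 were higher in TMS (72.3%), 0 were lower and 13 were not called, where 12.2% of all probe sets were higher and 11.5% were lower (12.3% and 12.7% of all genes). The median log2 fold change of the members was 0.38, against -0.03 for all genes. The TMS arrays lay above the diffMMS arrays without overlap for 37 members, as they did for 17.8% of all probe sets, with 19.7% below. Birc5, Mki67, Ube2c, Top2a and Anln were the 5 members more than 1 log2 unit higher, and 1.7% of all probe sets were that much higher and 1.42% that much lower. At an unadjusted p under 0.05 limma found 36 members higher and 0 lower. Luminal markers were higher in TMS for 8 of 9, with sums of 4764 to 7389 against 734 to 937, and of 8 basal markers 4 were lower and 1 higher. Fibroblast markers were lower in TMS for 4 of 8 and higher for 2, with sums of 27346 to 33404 against 35881 to 36318, and endothelial markers were lower for 2 of 6, with sums of 338 to 414 against 417 to 469.7. Macrophage markers were higher for 2 of 8 and lower for 0, with sums of 1264 to 2230 against 761 to 1224. The part of these cells in the difference was not tested. The first and the second comparison share the MMS arrays, and the third shares arrays with both, so that they are 3 views of 9 arrays and not independent of each other.

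**Figure D2:**
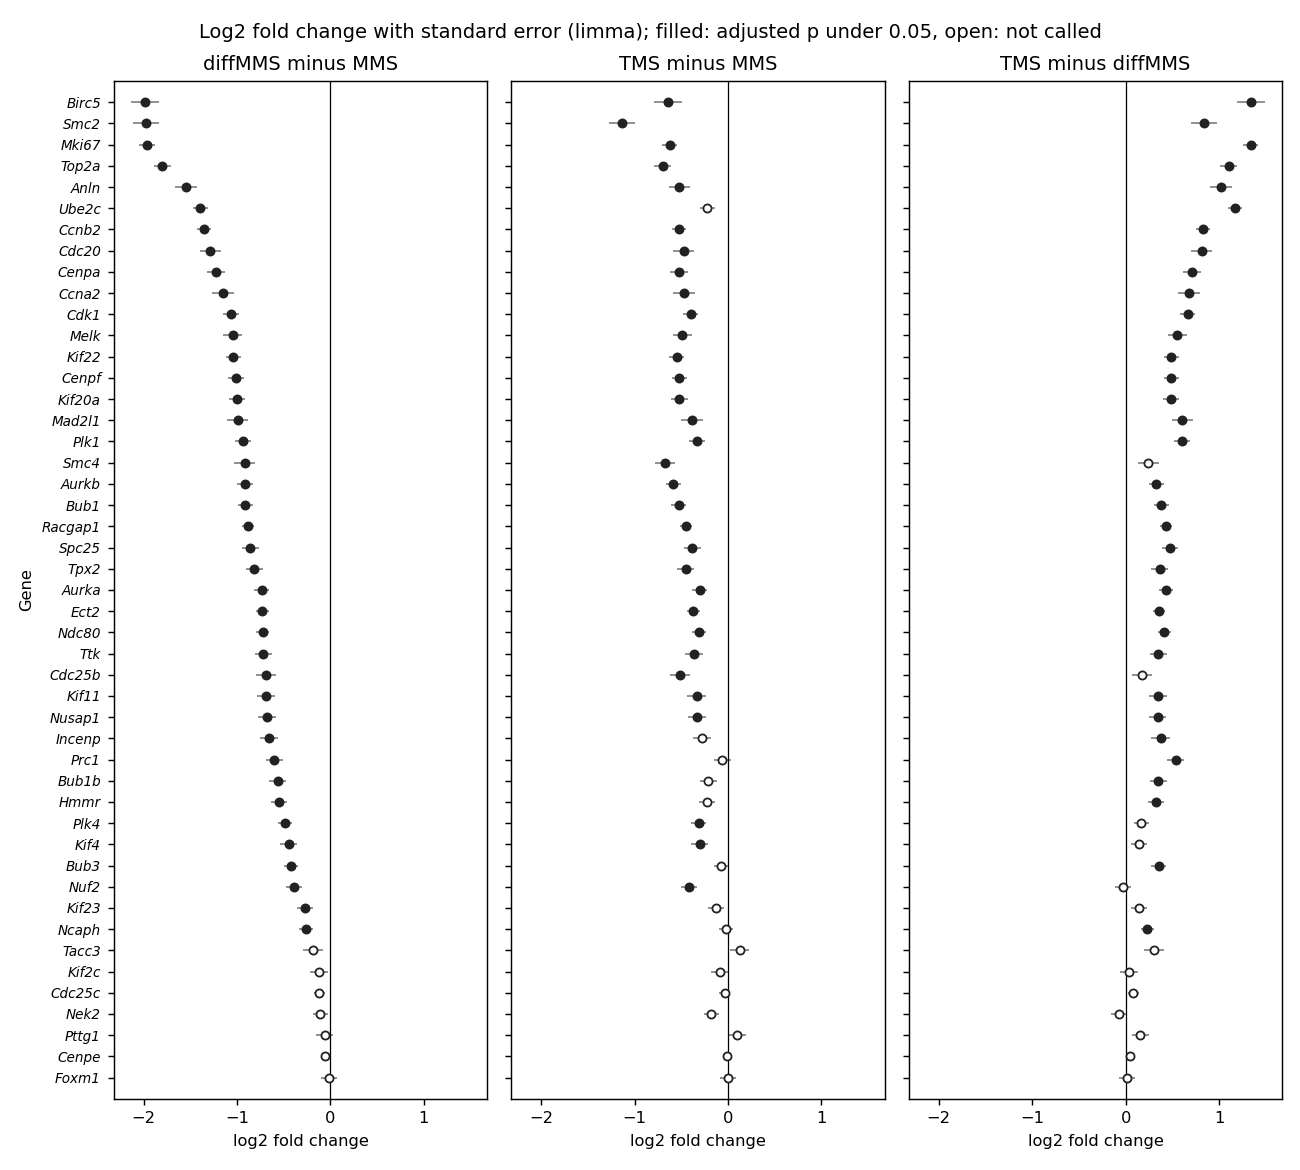
Log2 fold change of each of the 47 genes (rows, ordered by the first panel) with its standard error, from limma, in the 3 comparisons (filled points passed an adjusted p of 0.05). Nearly all points lie left of 0 in the first 2 panels and right of 0 in the third, and Birc5 at -1.99 and Smc2 at -1.97 were the lowest in diffMMS against MMS.

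The genes that shape and mark mitotic chromosomes fell furthest as a role, with a median of -1.80 over 5 genes in diffMMS against MMS and all 5 lower. Mki67, which codes for the Ki-67 protein that coats mitotic chromosomes, read 8.08, 8.19 and 8.04 in MMS, 7.44, 7.62 and 7.39 in TMS, and 6.22, 6.07 and 6.14 in diffMMS. The arrays of a group lay close together and the groups did not overlap. Its log2 fold change was -1.96 (SE 0.084, adjusted p = 1.24e-08) in diffMMS against MMS and -0.63 (SE 0.084, adjusted p = 0.000541) in TMS against MMS, and in TMS it was 2.53-fold higher than in diffMMS (adjusted p = 2.82e-07, all from limma). Top2a, the topoisomerase that untangles sister chromatids, read 8.40, 8.34 and 8.27 in MMS, 7.63, 7.70 and 7.59 in TMS, and 6.37, 6.72 and 6.51 in diffMMS. It fell 3.49-fold in diffMMS (log2 fold change -1.80, SE 0.0913, adjusted p = 5e-08 in limma) and was 1.62-fold lower in TMS than in MMS (adjusted p = 0.000465 in limma). Its promoter stretch is the one above with 3 CCAAT boxes and a CHR element.

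Smc2, an ATPase subunit of condensin, which compacts mitotic chromosomes, read 7.66, 7.95 and 7.79 in MMS, 6.30, 6.85 and 6.87 in TMS, and 5.71, 5.93 and 5.85 in diffMMS. TMS array 1099A was the low one of its group, and Smc2 had the largest SD of any member in TMS, 0.320 (n = 3). The groups still did not overlap, and Smc2 was 3.92-fold lower in diffMMS (adjusted p = 7.62e-07) and 2.19-fold lower in TMS (adjusted p = 0.000299) than in MMS by limma. Smc4, its partner in condensin, read 7.95, 8.04 and 7.83 in MMS, 7.34, 7.34 and 7.12 in TMS, and 6.81, 7.25 and 7.01 in diffMMS. Here TMS and diffMMS overlapped, at a log2 difference of 0.24 (SE 0.112, adjusted p = 0.141 in limma) that was called when 862A was left out (0.36, adjusted p = 0.0384), and both were below MMS, by -0.67 (adjusted p = 0.00206) and -0.92 (adjusted p = 7.17e-05). Ncaph, the kleisin that closes the condensin I ring, read 6.80, 6.73 and 6.73 in MMS, 6.65, 6.79 and 6.75 in TMS, and 6.45, 6.59 and 6.44 in diffMMS. It was lower in diffMMS than in MMS by a small step (log2 fold change -0.26, SE 0.0744, adjusted p = 0.0196 in limma). That call was lost without 858A, 861A or 863A (adjusted p = 0.07, 0.0555 and 0.0637 in limma), and the call of TMS above diffMMS (0.23, adjusted p = 0.0392) did not hold without 1100A, 1101A, 861A, 863A or one of the MMS arrays, at adjusted p values of 0.0559 to 0.122 in limma.

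**Figure D3:**
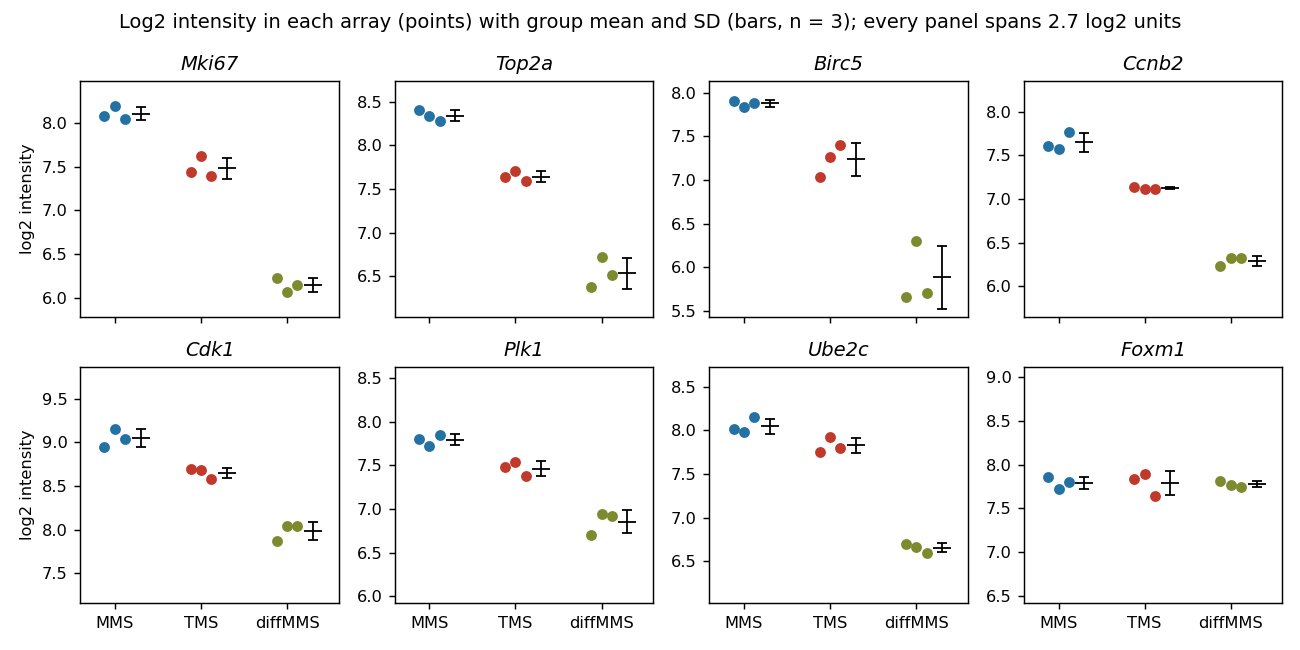
Log2 intensity of 8 genes in each array (points) with the mean and SD of each group (bars, n = 3), every panel spanning 2.7 log2 units. Mki67, Top2a, Birc5, Ccnb2, Cdk1 and Plk1 step down from MMS to TMS to diffMMS, TMS lies near MMS for Ube2c (7.83 and 8.05 on average), and the probe set used for Foxm1 is level at 7.79, 7.79 and 7.78.

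Of the measured cyclins, CDK1 and CDC25 phosphatases, which together make up the switch into mitosis, 4 of 5 were lower in diffMMS and the same number were lower in TMS than in MMS. Cdk1, the kinase that drives mitotic entry, read 8.95, 9.16 and 9.04 in MMS, 8.69, 8.68 and 8.58 in TMS, and 7.87, 8.05 and 8.05 in diffMMS. The 3 groups stood apart, with a 2.09-fold fall in diffMMS (log2 fold change -1.06, SE 0.0823, adjusted p = 1.64e-06 in limma) and a 1.32-fold lower level in TMS (adjusted p = 0.0071 in limma). Ccnb2, the B-type cyclin that activates CDK1, read 7.61, 7.57 and 7.77 in MMS, 7.14, 7.11 and 7.12 in TMS, and 6.23, 6.33 and 6.33 in diffMMS. Its fall was larger than that of Cdk1, at -1.36 in diffMMS (SE 0.0757, adjusted p = 1.07e-07) and -0.53 in TMS (adjusted p = 0.000855 in limma), although the difference between the 2 genes was not tested. Ccna2, the cyclin of S phase and early mitosis, had log2 fold changes of -1.15 in diffMMS and -0.47 in TMS, and Cdc25b, a phosphatase that frees CDK1 of its inhibitory phosphates, of -0.69 and -0.51, all called. Cdc25c, a related phosphatase, read 5.45, 5.62 and 5.54 in MMS, 5.54, 5.46 and 5.50 in TMS, and 5.41, 5.39 and 5.45 in diffMMS, which overlap between MMS and both other groups, and it was not called in any comparison.

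Among the mitotic kinases 4 of 5 were lower in diffMMS, and 4 of 5 in TMS. Plk1, the polo kinase that matures centrosomes and acts throughout mitosis, read 7.80, 7.73 and 7.85 in MMS, 7.48, 7.54 and 7.37 in TMS, and 6.70, 6.94 and 6.92 in diffMMS. The groups did not overlap, and Plk1 fell 1.91-fold in diffMMS (log2 fold change -0.94, SE 0.0856, adjusted p = 6.73e-06 in limma). Its lower level in TMS (log2 fold change -0.33, adjusted p = 0.0235 in limma), was no longer called when 1101A or one of the MMS arrays was left out, at adjusted p values between 0.0502 and 0.0986. Melk, a kinase abundant in dividing progenitor cells, read 6.11, 6.17 and 6.58 in MMS, 5.77, 5.79 and 5.85 in TMS, and 5.22, 5.28 and 5.24 in diffMMS. MMS array 860A stood above its group, and the SD of 0.255 was the largest of any member in MMS. Melk was 2.06-fold lower in diffMMS (adjusted p = 1.33e-05) and 1.4-fold lower in TMS (adjusted p = 0.00833 in limma). Aurka, which builds the spindle poles, and Plk4, which starts centriole duplication, were lower in diffMMS, at -0.74 and -0.48, and in TMS, at -0.30 and -0.31. Nek2, which parts the centrosomes, read 6.32, 6.12 and 6.26 in MMS, 6.06, 6.02 and 6.09 in TMS, and 6.24, 5.999 and 6.14 in diffMMS. All TMS values lay below those of MMS, but the difference of -0.18 did not pass the test (SE 0.0817, adjusted p = 0.178 in limma), and diffMMS overlapped with both.

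The chromosomal passenger complex corrects faulty attachments of chromosomes to the spindle, and its 3 measured genes were all lower in diffMMS. Birc5, survivin, the subunit that brings the complex to the centromere, read 7.91, 7.84 and 7.88 in MMS, 7.04, 7.26 and 7.40 in TMS, and 5.66, 6.30 and 5.70 in diffMMS. Array 862A was the high one of the diffMMS group, where Birc5 had the largest SD of any member, 0.359. The groups did not overlap, and the fall was 3.97-fold in diffMMS (log2 fold change -1.99, SE 0.15, adjusted p = 1.35e-06 in limma) while TMS was 1.56-fold below MMS (adjusted p = 0.0143 in limma). Between TMS and diffMMS Birc5 differed most of all members, by 1.35 log2 units (SE 0.15, adjusted p = 4.26e-05 in limma). Aurkb, the kinase of the complex, was lower in diffMMS, at -0.92, and in TMS, at -0.59. Incenp, its scaffold, read 7.36, 7.13 and 7.21 in MMS, 6.95, 6.95 and 6.96 in TMS, and 6.79, 6.39 and 6.56 in diffMMS. It fell by 0.66 log2 units in diffMMS (adjusted p = 0.000396 in limma), and against MMS the TMS arrays were lower without overlap yet not called (log2 fold change -0.28, SE 0.1, adjusted p = 0.0878 in limma), although without 861A they were (adjusted p = 0.0372). The call of Incenp above diffMMS in TMS (0.38, adjusted p = 0.017) was lost without 862A or 863A (adjusted p = 0.0683 and 0.0536 in limma).

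The spindle assembly checkpoint holds back anaphase until all kinetochores are attached, and all 5 of its genes were lower in diffMMS, with log2 fold changes of -0.99 to -0.42, and higher in TMS than in diffMMS. In TMS against MMS 3 of 5 were lower: Bub1, Ttk and Mad2l1. Mad2l1, which blocks CDC20 at unattached kinetochores, read 7.46, 7.48 and 7.44 in MMS, 6.98, 7.14 and 7.09 in TMS, and 6.16, 6.57 and 6.67 in diffMMS. It was 1.99-fold lower in diffMMS (adjusted p = 4.27e-05) and 1.31-fold lower in TMS (adjusted p = 0.042 in limma), a call that did not hold when 862A or one of the TMS or MMS arrays was left out, with adjusted p values from 0.0526 to 0.127 in limma. Bub3, a subunit of the complexes of BUB1 and BUBR1, read 9.13, 9.17 and 9.22 in MMS, 9.07, 9.10 and 9.12 in TMS, and 8.88, 8.70 and 8.66 in diffMMS. The TMS values came next to those of MMS without overlap, but the difference was only -0.07 (SE 0.076, adjusted p = 0.613 in limma), while diffMMS lay clearly below both. Bub1b, which codes for BUBR1, was lower in diffMMS, at -0.57, and was not called in TMS against MMS (-0.21, adjusted p = 0.153 in limma).

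At the centromere and kinetochore 5 of 6 genes were lower in diffMMS and 5 of 6 in TMS than in MMS. Cenpa, the histone H3 variant that marks the centromere, read 7.08, 7.06 and 7.23 in MMS, 6.50, 6.78 and 6.53 in TMS, and 5.96, 5.97 and 5.75 in diffMMS. The groups stood apart, with falls of 2.34-fold in diffMMS (log2 fold change -1.23, SE 0.0959, adjusted p = 1.79e-06 in limma) and of 1.43-fold in TMS (adjusted p = 0.00379 in limma). Cenpf, a large protein of the outer kinetochore, was lower in diffMMS, at -1.01, and in TMS, at -0.52. The NDC80 complex grips the ends of spindle microtubules, and its genes Spc25, Ndc80 and Nuf2 were lower in diffMMS, at -0.86, -0.73 and -0.39, and in TMS, at -0.38, -0.31 and -0.41. Of these Nuf2 alone showed no higher level in TMS than in diffMMS, with a log2 difference of -0.03 (SE 0.0849, adjusted p = 0.84 in limma). Cenpe, a kinetochore motor, read 4.11, 4.09 and 4.10 in MMS, 4.10, 4.13 and 4.04 in TMS, and 3.97, 4.07 and 4.09 in diffMMS, with overlap between all groups and no call. Its probe set was among the dimmest, at percentile 1.14 of the means of all probe sets, so that a lower level might not show.

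Of 8 spindle motors and microtubule proteins 6 were lower in diffMMS and 5 in TMS than in MMS. Kif22, a motor that pushes chromosome arms towards the equator, read 7.92, 7.80 and 7.77 in MMS, 7.33, 7.35 and 7.17 in TMS, and 6.73, 6.80 and 6.85 in diffMMS. It fell 2.06-fold in diffMMS (log2 fold change -1.04, SE 0.0792, adjusted p = 1.44e-06 in limma) and was 1.46-fold lower in TMS (adjusted p = 0.000882 in limma), with no overlap between groups. Tpx2, which activates Aurora A on the spindle, Kif11, the motor that keeps the poles apart, Nusap1, which bundles microtubules, Hmmr, a spindle pole protein, and Kif4, a chromosome motor, were lower in diffMMS, with log2 fold changes of -0.82 to -0.45. Hmmr was not called in TMS against MMS by the probe set used (log2 fold change -0.22, adjusted p = 0.123 in limma). Kif2c, a microtubule depolymerase, read 7.37, 7.22 and 7.10 in MMS, 7.04, 7.27 and 7.11 in TMS, and 7.13, 6.97 and 7.21 in diffMMS. By this probe set the groups overlapped throughout, but not by another one given below. Tacc3, which stabilises spindle microtubules, read 6.95, 6.96 and 6.95 in MMS, 7.11, 7.04 and 7.08 in TMS, and 6.89, 6.94 and 6.48 in diffMMS. Its TMS values were the highest without overlap, yet neither this difference (0.12, SE 0.107, adjusted p = 0.514) nor the one in diffMMS (-0.19, adjusted p = 0.206) passed the test in limma. By another probe set of Tacc3 TMS lay below MMS without overlap and was called lower (-0.34, adjusted p = 0.0148 in limma).

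All 6 genes of the central spindle and cytokinesis were lower in diffMMS, and 4 of 6 in TMS than in MMS. Anln, anillin, the scaffold of the contractile ring, read 7.23, 6.99 and 7.19 in MMS, 6.37, 6.84 and 6.63 in TMS, and 5.57, 5.72 and 5.48 in diffMMS. The TMS arrays spread over 0.47 log2 units without reaching either other group, and Anln was 2.92-fold lower in diffMMS (adjusted p = 1.36e-06) and 1.43-fold lower in TMS (adjusted p = 0.0113 in limma). Kif20a, Racgap1 and Ect2, a motor and the regulators of RhoA that place the cleavage furrow, were lower in diffMMS, at -1.004, -0.88 and -0.73, and in TMS, at -0.52, -0.45 and -0.37. Prc1, which cross-links the central spindle, was lower in diffMMS, at -0.60, and differed by -0.06 in TMS (SE 0.0909, adjusted p = 0.718 in limma). Kif23, the motor of centralspindlin, read 7.18, 7.23 and 7.37 in MMS, 7.12, 7.25 and 7.01 in TMS, and 7.02, 7.02 and 6.93 in diffMMS. It was lower in diffMMS, at -0.27 (SE 0.0841, adjusted p = 0.0279 in limma), a call that was lost without 859A, 860A, 862A or 863A, at adjusted p values of 0.0512 to 0.121, and TMS overlapped with both other groups.

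Of the 3 measured genes of anaphase and mitotic exit 2 were lower in diffMMS. Ube2c, the ubiquitin-conjugating enzyme of the anaphase-promoting complex, read 8.02, 7.99 and 8.15 in MMS, 7.76, 7.93 and 7.80 in TMS, and 6.70, 6.67 and 6.60 in diffMMS. In diffMMS it fell 2.63-fold (log2 fold change -1.39, SE 0.0778, adjusted p = 1.07e-07 in limma), whereas TMS was near MMS, without overlap but not called (log2 fold change -0.22, adjusted p = 0.0818 in limma). With arrays centred on their medians Ube2c was called lower in TMS than in MMS (-0.31, adjusted p = 0.0293 in limma). Ube2c was 2.25-fold higher in TMS than in diffMMS (adjusted p = 4.71e-07 in limma). Cdc20, which activates the same complex at the start of anaphase, was lower in diffMMS, at -1.29, and in TMS, at -0.47. Pttg1, securin, which the complex destroys to free separase, read 8.73, 8.58 and 8.76 in MMS, 8.94, 8.76 and 8.66 in TMS, and 8.72, 8.54 and 8.63 in diffMMS. These values overlap, and its log2 fold changes of -0.06 in diffMMS (adjusted p = 0.652) and 0.10 in TMS (adjusted p = 0.533) did not pass the test in limma. With arrays centred on their medians Pttg1 was called lower in diffMMS (-0.27, adjusted p = 0.0179 in limma), and so it was with the values as deposited (-0.23, adjusted p = 0.0362).

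Foxm1, the transcription factor that activates many of these genes in G2, was level by the probe set of the highest mean. It read 7.86, 7.72 and 7.80 in MMS, 7.84, 7.90 and 7.64 in TMS, and 7.81, 7.77 and 7.74 in diffMMS, with a log2 fold change of -0.01 in diffMMS against MMS (SE 0.0825, adjusted p = 0.908 in limma). A dimmer probe set of the same gene read 6.51, 6.26 and 6.35 in MMS, 6.13, 6.13 and 6.14 in TMS, and 5.84, 5.72 and 5.80 in diffMMS. Here the 3 groups stood apart in the order of the other members, and Foxm1 was lower in diffMMS, at -0.58 (adjusted p = 0.000116 in limma), with -0.24 in TMS against MMS (adjusted p = 0.0536). The other 2 probe sets of Foxm1 were not called in any comparison.

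Probe sets of one gene differed for other members as well. Of the 47 genes 24 had several probe sets, with 41 further ones beside those used. In diffMMS against MMS 25 of the 41 were lower and 0 were higher, and 23 gave the same call as the probe set used, with 0 called the other way. In TMS against MMS 15 were lower and 0 were higher, and against diffMMS 16 were higher and 0 were lower. Of the 7 genes not called in diffMMS 4 had another probe set that was lower: Foxm1, Kif2c, Tacc3 and Pttg1. For Kif2c they were at -1.11 and -0.60 (adjusted p = 1.41e-05 and 9.32e-05), for Tacc3 at -0.87 and -0.42 (adjusted p = 6.74e-06 and 0.00207) and for Pttg1 at -0.54 (adjusted p = 0.000422, all in limma). In TMS against MMS, where the probe sets used for Tacc3 and Pttg1 were above 0 and not called, 1 further probe set of each was lower, at -0.34 for Tacc3 and -0.33 for Pttg1 (adjusted p = 0.0148 and 0.0201 in limma). The remaining further probe set of each was not called there, at -0.11 for Tacc3 and -0.10 for Pttg1. Kif2c, Hmmr and Ncaph were not called in TMS against MMS by the probe sets used either. For each of them 1 further probe set was lower, at -0.60, -0.40 and -0.40 (adjusted p = 0.00384, 0.0247 and 0.0252 in limma). The other further ones of Kif2c and Hmmr were not called there. In the other direction, in diffMMS against MMS, Top2a had a further probe set that was not called, at 0.25 (adjusted p = 0.19 in limma), and the 3 further ones of Bub3 were not called either. Bub1, Cdc20, Cenpf, Incenp, Kif23, Nusap1, Plk4 and Spc25, all called lower there, each had a further probe set that was not called as well. That of Cdc20 was at -0.08 and that of Incenp at -0.04. With the probe set of the largest F statistic for each gene, 44 members were lower in diffMMS, and with that of the lowest mean 33. The first of these choices was made from the tested values and so favours a difference. Aurkb, Bub3, Kif22, Prc1, Cdc20 and Pttg1 were read by probe sets of a design (_s_at or _x_at) whose probes can match other transcripts as well. The sequences of the probes were not used here, so which transcripts each detects was not tested.

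**Figure D4:**
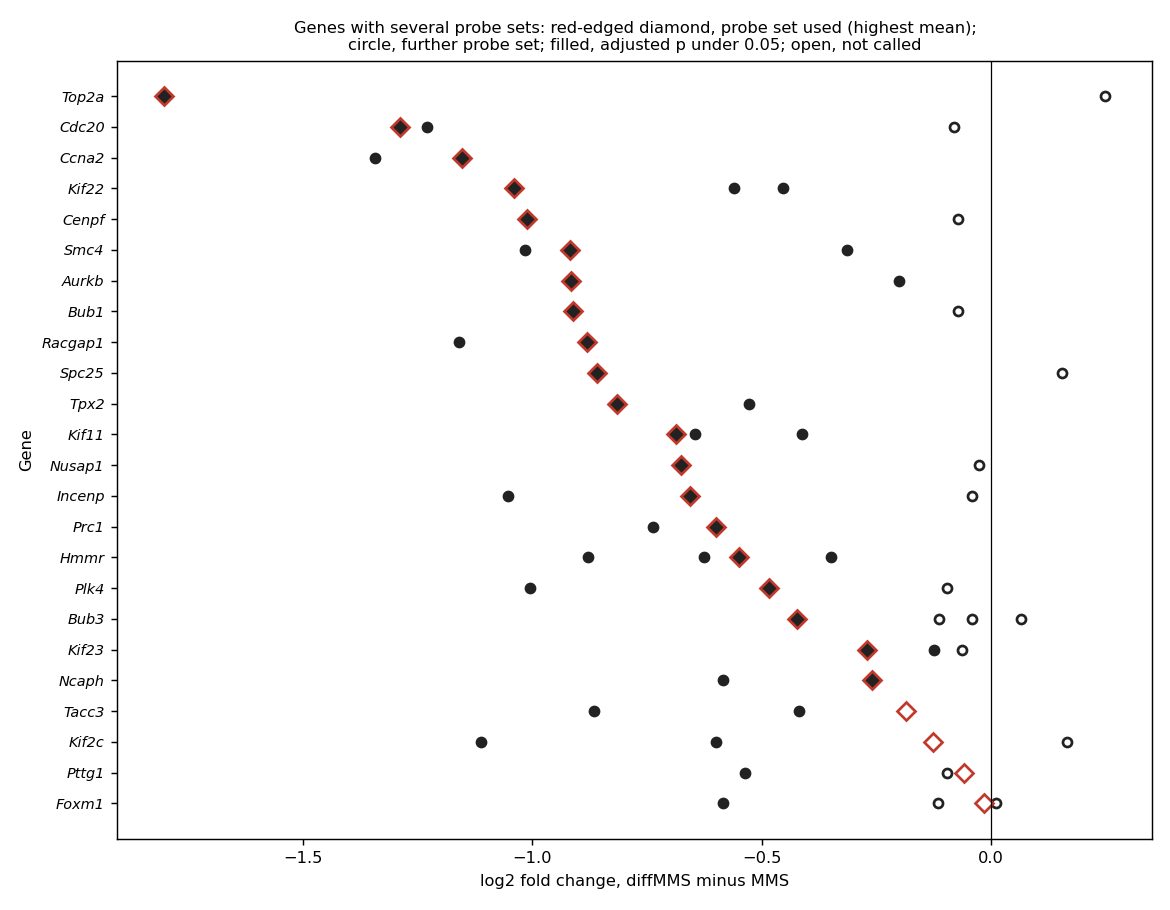
Log2 fold change in diffMMS against MMS of every probe set of the 24 genes that have several (rows), with the probe set used as a red-edged diamond, further ones as circles, and filled symbols for an adjusted p under 0.05. Called probe sets all lie left of 0, and Foxm1, Kif2c, Tacc3 and Pttg1 have an open diamond between -0.19 and -0.01 beside a filled circle between -0.42 and -1.11.

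Other genes of the mitotic machinery, taken from lists of the same pathways, were lower in part. Of 78 measured genes in 6 lists 39 were lower in diffMMS than in MMS and 3 were higher, with a median of -0.22. Over all genes 16.1% were lower and 18% were higher. Of 13 other genes of the anaphase-promoting complex 5 were lower, with the largest fall in Ube2s (-0.56, adjusted p = 0.000329), a chain-extending enzyme, and 1 was higher, Cdc16 (0.23, adjusted p = 0.0369 in limma), a core subunit. Cohesin, the ring that ties sister chromatids, had 5 of 10 genes lower, with Esco1, which acetylates it, at -0.60. Condensin and chromosome genes had 4 of 6 lower, with Ncapd2, a subunit of condensin I like Ncaph, at -0.96 (adjusted p = 1.27e-05 in limma). At the centromere and kinetochore 10 of 19 were lower, with Mis18a, which licenses the loading of CENP-A, at -0.93 (adjusted p = 1.69e-06 in limma).

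Further spindle and cytokinesis genes were lower in 10 of 19, with the largest fall in Stmn1, stathmin, which destabilises microtubules (-1.46, adjusted p = 1.58e-07), while Cit, the citron kinase of the midbody, was higher (0.34, adjusted p = 0.0306 in limma). Of 11 regulators of mitotic entry 5 were lower and Ensa, an inhibitor of the phosphatase PP2A, was higher (0.24, adjusted p = 0.0254 in limma). Cks2, a small subunit bound to CDK1, read 8.54, 8.62 and 8.69 in MMS, 7.91, 8.09 and 8.25 in TMS, and 6.64, 7.13 and 6.98 in diffMMS, with no overlap. Its log2 fold change was -1.70 in diffMMS and -0.53 in TMS (adjusted p = 9.44e-07 and 0.0136 in limma).

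In TMS against MMS 20 of the 78 genes were lower and 0 were higher, where 7.11% and 6.21% of all genes were. In the list of the anaphase-promoting complex 0 of 13 were called, which is near those shares. Against diffMMS, 22 of the 78 were higher in TMS and 3 were lower, where 12.3% and 12.7% of all genes were. Kpna2, an importin that carries spindle factors, was the gene of these lists with the largest difference between TMS and MMS (-0.75, SE 0.14, adjusted p = 0.00402 in limma). After Cks2 in the list of mitotic entry, the largest called differences of the remaining lists were Cenpc1, a centromere protein, at -0.44, Ncapd2 in the condensin list at -0.44 and Stag2, a subunit of cohesin, at -0.41 (adjusted p = 0.0222, 0.00953 and 0.00585 in limma).

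The genes of S phase were lower as well. Of 41 measured genes of DNA replication 33 were lower in diffMMS and 0 were higher, with a median of -0.52, and 18 were lower in TMS than in MMS. Over all genes 16.1% were lower and 18% higher in diffMMS, and 7.11% and 6.21% in TMS against MMS. Pcna, the sliding clamp of the replicative polymerases, read 10.01, 10.01 and 10.07 in MMS, 9.62, 9.61 and 9.69 in TMS, and 8.30, 8.28 and 8.41 in diffMMS. Its log2 fold change was -1.70 in diffMMS (adjusted p = 9.17e-09 in limma), in the order of groups that the members showed. Mcm6, a subunit of the replicative helicase, had the largest difference of the list between TMS and MMS (-0.55, adjusted p = 0.000465 in limma). Of the regulators thought to act on the promoters of the members, 7 of 16 were lower in diffMMS and 0 were higher, with Rbl1, the p107 pocket protein, at -1.05 (adjusted p = 3.53e-06 in limma). In TMS against MMS 3 of the 16 were lower and 0 were higher, and the largest called difference was that of Nfya, a subunit of NF-Y (-0.42, adjusted p = 0.0113 in limma). Rb1, the retinoblastoma protein, was above MMS in TMS without overlap but was not called (0.65, adjusted p = 0.0591 in limma). Mybl2, which codes for B-MYB, differed by -0.13 in diffMMS (adjusted p = 0.16 in limma).

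The D cyclins and CDK inhibitors, which act before S phase, are given for comparison. Of 12 genes 5 were lower and 2 higher in diffMMS, where 16.1% and 18% of all genes were, and 2 were lower and 1 higher in TMS than in MMS, where 7.11% and 6.21% of all genes were. The numbers higher are near those shares. Ccnd1, cyclin D1, read 9.98, 9.74 and 9.96 in MMS, 10.92, 11.05 and 10.28 in TMS, and 8.22, 8.11 and 8.05 in diffMMS. It was highest in TMS, by 0.85 over MMS (SE 0.161, adjusted p = 0.00424), and fell by 1.77 in diffMMS (adjusted p = 6.35e-06 in limma). Ccnd2 was higher in diffMMS (0.33, adjusted p = 0.00609), and Cdkn2c, an inhibitor of CDK4 and CDK6, was lower in TMS than in MMS (-0.41, adjusted p = 0.00429 in limma).

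**Figure D5:**
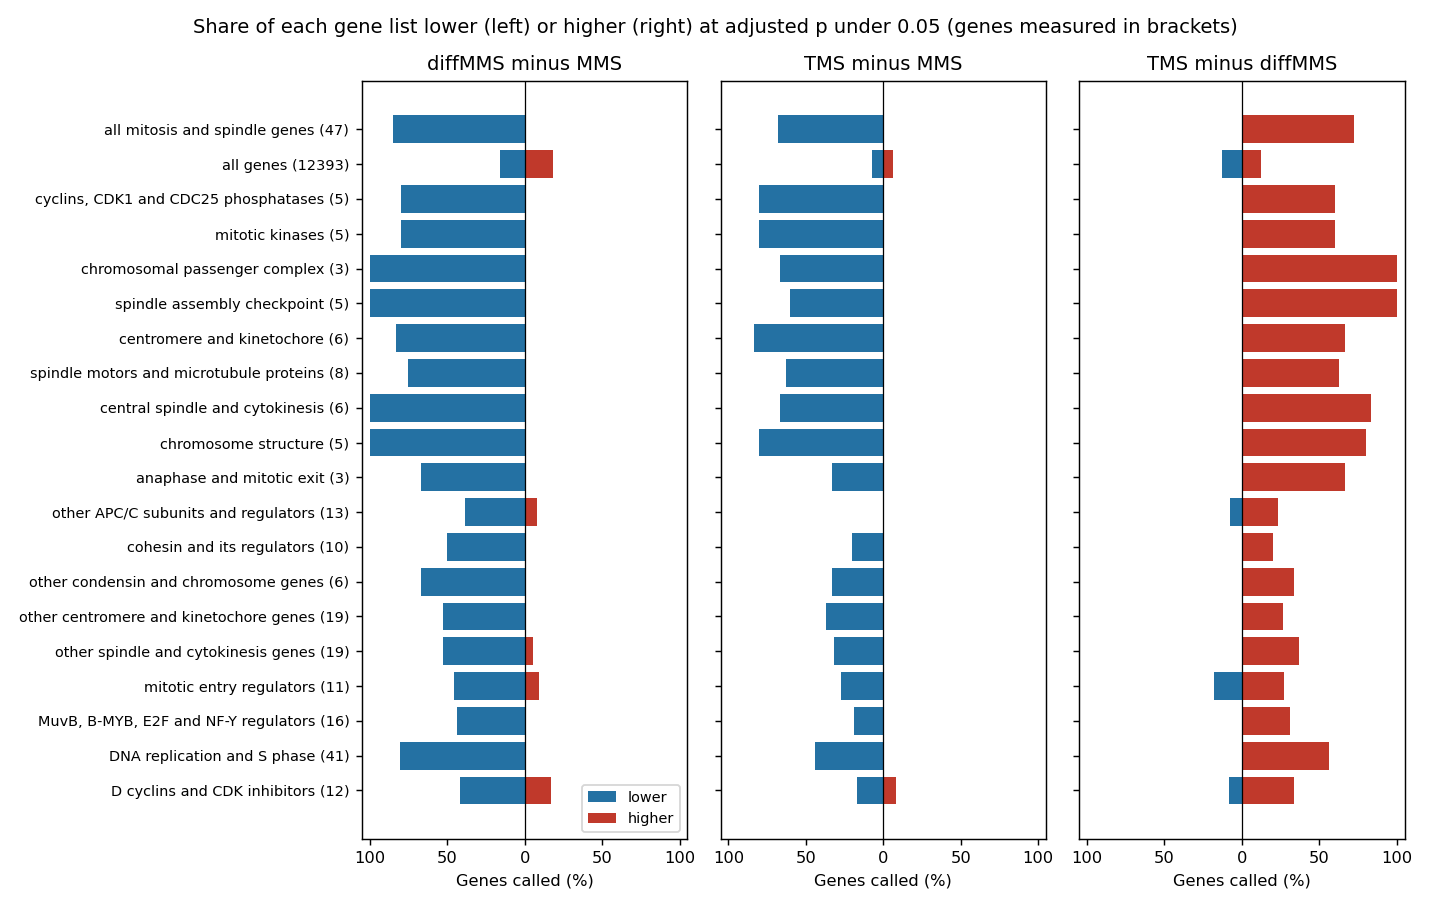
Share of the genes of each list that were lower (blue, left) or higher (red, right) at an adjusted p under 0.05 in the 3 comparisons, with the number of measured genes in brackets, for the mitosis and spindle genes, their roles, all genes and the other lists. The mitosis and spindle genes and the replication genes have blue bars only in the first 2 panels, and all genes have bars of similar length on both sides.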

How the data were processed

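Total RNA of 3 TMS, 3 MMS and 3 diffMMS preparations was hybridized to MOE430A Gene Chips, 1 array per preparation. The authors deposited 1 table of intensity values for 22690 probe sets on a linear scale. The study names GeneSpring, and the summary method and scaling are not given in the sources used here. The quartiles of the arrays lay up to 0.134 apart (log2), over a limit of 0.1, so after addition of 8.67 and log2 the arrays were quantile normalized. One linear model of the 3 groups was then run on the 9 arrays in R 4.3.3 with limma 3.58.1, using lmFit and eBayes with an intensity trend and 6 residual degrees of freedom. Two-sided p values were corrected by the Benjamini-Hochberg method across 22626 probe sets, without the 64 Affymetrix controls, and a gene is called at an adjusted p under 0.05. The fit was tested on simulated data. SDs are over the 3 arrays of a group. Standard errors are those of limma for a difference of group means, with a spread pooled over the 9 arrays and moderated across probe sets. The number of 3 arrays per group limits the precision.

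Gene names come from the platform annotation, in which 20380 probe sets carry 1 symbol, 691 several and 1555 none. Genes of the other lists were read from their brightest probe set too. Given in every array are Mki67, Cdk1, Plk1, Top2a and Foxm1, the largest and the smallest change in diffMMS of each role that lists at least 4 genes, and the 3 largest called changes in each comparison of TMS. Of the other lists the called gene of the largest change in each direction is named. Mybl2, Rb1, the keratins, the statistics of Nuf2, Prc1, Hmmr and Bub1b and the further probe sets were chosen after their values were seen. The members, lists and tests were chosen with earlier results of these data known. No set test was made. Alternatives were other scalings, pseudocounts of 0 and 50% of the median, probe sets above the median only, other variance models, fits on the compared pair of groups alone, removal of each array, other thresholds and other probe sets. Python 3.11.15 and matplotlib 3.10.9 made the figures.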

Additional observations from a re-analysis of the deposited data

How the results depend on the processing

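No count of members changed direction under any alternative run. The number of members lower in TMS than in MMS, 32, moved most: it was 20 with probe sets above the median only, where 32 members were left to test, 18 at an adjusted p under 0.01, 1 with a log2 fold change over 1, and 18 to 33 when each array was left out in turn, with 18 without MMS array 860A. The number lower in diffMMS than in MMS, 40, was 15 with a log2 fold change over 1 and 38 to 40 when arrays were left out. The number higher in TMS than in diffMMS, 34, was 5 with a log2 fold change over 1 and 29 to 33 when arrays were left out. Under the scalings, pseudocounts, variance models and probe set choices the 3 counts were 33 to 44, 27 to 36 and 25 to 37. The upper ends came from the probe set of the largest F statistic, a choice that favours a difference. Under all 17 scalings, pseudocounts, variance models, smaller fits and removals of an array, 38 of the 40, 18 of the 32 and 26 of the 34 called members kept their call. No paired analysis was possible because the labels number no replicates. With 3 arrays per group, small differences such as those of Nek2 or Bub3 between TMS and MMS are limited by the spread between arrays.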
